A study of Mus musculus with 14 samples.

Results

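The comparison described here is the difference between SirT7-/- and wild-type mouse embryonic fibroblasts in their response to glucose starvation. It uses all 14 libraries of the series. In normal medium there were 4 wild-type libraries (WT-NT) and 4 from SirT7-/- cells (KO-NT), and in glucose-free medium 3 wild-type libraries (WT-GS) and 3 from SirT7-/- cells (KO-GS). All cells were of strain 129s2, came from embryos of day 14.5, were at passages 3 to 4 and spent 18 hours in their medium before total RNA was taken. The wild-type groups carry no allele or agent named in the labels, and the SirT7-/- groups carry the homozygous deletion alone. The labels do not say how many embryos gave cells, whether cells were pooled or whether replicates were separate cultures, so p-values measure the spread between these libraries, which may be technical. The labels name no batch.

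SirT7 is a sirtuin, an enzyme that uses NAD to remove acyl groups from proteins, and it is known from the nucleolus and from chromatin. Cells without glucose lose sugar for N-linked glycans, so proteins fold poorly in the endoplasmic reticulum (ER) and the unfolded protein response raises chaperones such as Hspa5. Glucose also keeps the transcription factors MondoA and ChREBP active, and their target Txnip is known to fall without it. A response here is the log2 ratio of a gene's level in glucose-free over normal medium within 1 genotype. The difference in response is the SirT7-/- response minus the wild-type response, so a positive value can mean a larger rise or a smaller fall in SirT7-/- cells.

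Total counts per library ran from 59788270 to 91607861. Sirt7, the deleted gene, stood at 17.9, 23.1, 21.4 and 18.7 CPM (counts scaled to the library's total) in WT-NT 1 to 4, and at 17.6, 17.3 and 16.9 CPM in WT-GS 1 to 3. It stood at 1.02, 1.39, 1.41 and 0.557 CPM in KO-NT 1 to 4 and at 0.301, 0.475 and 0.393 in KO-GS 1 to 3, so the genotype labels hold in every library. Medium was less clear. A scale was set along 5160 genes that the wild-type libraries alone called for starvation, from 0 for the average WT-NT library to 1 for the average WT-GS library. On it KO-NT 1 to 3 ran from -0.01 to 0.06, and KO-GS 1 and 2 stood at 0.87 and 0.90. The wild-type libraries set both the genes and the scale, so these 2 values are not read as a weaker SirT7-/- response. KO-NT 4 as labelled stood at 0.85 and KO-GS 3 as labelled at 0.19, each with the other medium. WT-NT 4 stood at 0.12, above the other WT-NT libraries. Fibroblast markers were abundant throughout, with summed levels of 14024 to 42775 CPM. Each result is therefore given with all 14 libraries as labelled and beside it without these 2, which leaves 12. The 2 were left out for where they lie along starvation genes, so the SirT7-/- values of starvation genes without them are partly set by that choice.

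By edgeR no gene passed the test of the genotype difference in response, in either fit. With all 14 libraries, edgeR called 0 of 15666 genes (0%) at an adjusted p under 0.05, and the smallest adjusted p was 0.680. At an unadjusted p under 0.05 there were 950 genes (6.06%), with 571 at a higher (3.64%) and 379 at a lower (2.42%) SirT7-/- response. Without the 2 libraries, edgeR called 0 of 15864 genes (0%), the smallest adjusted p was 1.0, and 524 genes (3.3%) had an unadjusted p under 0.05, of which 325 (2.05%) were higher and 199 (1.25%) lower. Limma-voom also called 0 in both fits, with 840 and 440 genes at an unadjusted p under 0.05. DESeq2 called 5 genes with all libraries and 15 without the 2.

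The size of difference that these libraries could miss varied by gene. With all libraries the median difference was 0.01 on the log2 scale, its median absolute size 0.26 and its median standard error (SE) 0.30. The gene's own 95% interval lay within a 2-fold difference either way for 8224 genes (52.5%) and within 1.5-fold for 4135 (26.4%). In the smaller fit the median absolute difference was 0.17 and the median SE 0.25, and the interval lay within 2-fold for 9609 genes (60.6%) and within 1.5-fold for 5905 (37.2%). For the remaining genes the interval reached beyond these bounds, so a larger difference was not excluded. Across genes, which are not independent replicates, the wild-type and SirT7-/- responses had a Pearson r of 0.52 with all libraries and 0.65 without the 2. Among the 11078 and 11125 genes with at least 5 CPM in a group, r was 0.68 and 0.83. The 2 responses share no library.

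**Figure D1:**
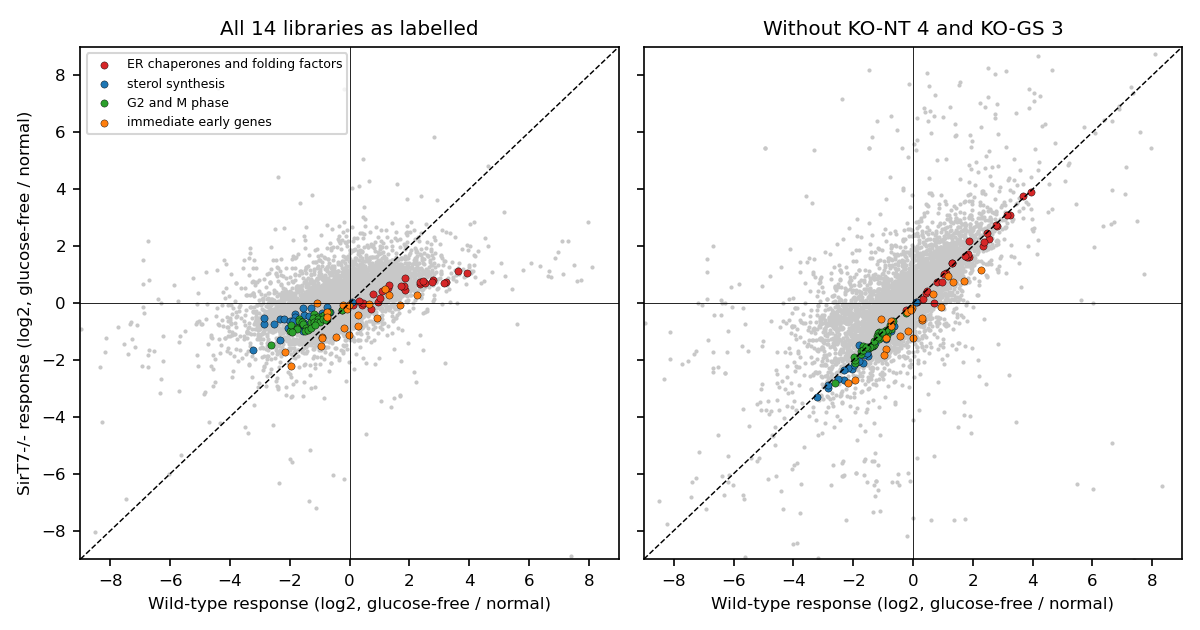
Response of each tested gene in SirT7-/- cells (vertical axis, log2) against wild-type cells (horizontal axis, log2), with all 14 libraries (left) and without KO-NT 4 and KO-GS 3 (right). Grey points are all genes, colours mark 4 gene lists and the dashed line is equality. With all libraries most ER chaperones lie below it and most sterol genes above it. Without the 2 both lie closer to it, with 23 of 27 chaperones and 23 of 24 sterol genes below it. Axes end at 9 either way, and 7 and 14 genes lie beyond them.

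The genes called for starvation in the wild-type libraries alone were also the ones that placed KO-NT 4 and KO-GS 3. Their values with all libraries do not depend on that placing, while those without the 2 are largely set by it and are given as a description. The wild-type medians come from the libraries that chose the genes, and that choice makes them larger in either direction. The gap to the SirT7-/- medians is therefore partly set by it. Over all genes tested, the median SirT7-/- response was 0.01 as labelled and 0.03 without the 2. Of 2566 genes higher in starved wild-type cells, with a median response of 0.64, 96.1% had a positive SirT7-/- response with all libraries, at a median of 0.30. In the 12 libraries, 99.4% were positive, at a median of 0.64. Of 2594 genes lower in starved wild-type cells, with a median of -0.86, 92.6% had a negative SirT7-/- response, at a median of -0.41. Without the 2 libraries the same choice held 2595 genes, of which 98.2% were negative, at a median of -0.75. Among genes with at least a 2-fold wild-type response, the 657 higher ones had a median of 1.55 in wild type and of 0.69 in SirT7-/- cells as labelled, or 1.56 without the 2. The 1078 lower ones had a median of -1.59 in wild type and of -0.65 in SirT7-/- cells as labelled, and the 1079 lower ones without the 2 had -1.30.

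The chaperone Hspa5, which binds unfolded proteins in the ER, shows how the labelled groups hold both kinds of library. Its level was 1449, 1479, 1456 and 1065 CPM in WT-NT 1 to 4 against 7435, 6496 and 6206 CPM in WT-GS 1 to 3. It was 1556, 1437, 1457 and 6333 CPM in KO-NT 1 to 4 against 6251, 5654 and 1066 CPM in KO-GS 1 to 3. The wild-type groups do not overlap, and the SirT7-/- groups overlap through KO-NT 4 and KO-GS 3. The wild-type response was 2.34 (SE 0.59) and the SirT7-/- response 0.67 (SE 0.58), a difference of -1.67 (SE 0.83, 95% interval -3.48 to 0.13). In the 12 libraries the responses were 2.36 (SE 0.14) and 2.002 (SE 0.16), a difference of -0.36 (SE 0.21, interval -0.82 to 0.10).

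Derl3, which helps export misfolded proteins from the ER for degradation, had the widest intervals of the anchor genes. It stood at 0.232 to 0.556 CPM in WT-NT, at 124, 62.1 and 88.8 CPM in WT-GS, at 0.365, 0.309, 0.247 and 145 CPM in KO-NT 1 to 4 and at 222, 44.8 and 0.320 CPM in KO-GS 1 to 3. Its difference in response was -6.83 (SE 2.97) as labelled and 0.63 (SE 0.83) without the 2, and 0.03 with KO-NT 4 alone left out. Ddit3, the stress factor CHOP, stood at 77.7 to 104 CPM in WT-NT, at 436 to 596 in WT-GS, at 69.4, 77.1, 72.7 and 581 in KO-NT and at 613, 350 and 86.4 in KO-GS. Its difference was -1.70 (SE 1.05) as labelled and 0.20 (SE 0.28) without the 2, where it was -0.24 when KO-GS 1 was left out as well.

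Txnip, an inhibitor of glucose uptake, was the anchor gene with the largest positive difference. It stood at 161, 146, 220 and 151 CPM in WT-NT 1 to 4, and 4.80, 1.57 and 4.46 CPM in WT-GS 1 to 3. It was 117, 113, 96.5 and 5.53 CPM in KO-NT 1 to 4 and 9.19, 1.77 and 118 CPM in KO-GS 1 to 3. KO-NT 1 to 3 lay below every WT-NT library, while KO-GS 1 lay above and KO-GS 2 within the range of WT-GS. The difference in response was 4.52 (SE 1.61, interval 1.04 to 8.01) as labelled and 1.16 (SE 0.71, interval -0.40 to 2.72) without the 2, where the responses were -5.48 and -4.32. Without KO-GS 1 as well it was -0.46. On the list of 8 glucose-driven genes of MondoA and ChREBP, the median difference was 0.38 as labelled and 0.15 without the 2. Besides Txnip its members with the smallest p were Klf10, a transcription factor, at -0.50 (SE 0.19) and -0.54 (SE 0.20), and Dak, a kinase of small sugars, at 0.62 (SE 0.27) and 0.25 (SE 0.16). The anchor Hmgcs1, of sterol synthesis, is listed at 0 in all 14 libraries and was not tested. Fibroblasts are known to use this gene, so the listed 0 is not read as absence.

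**Figure D2:**
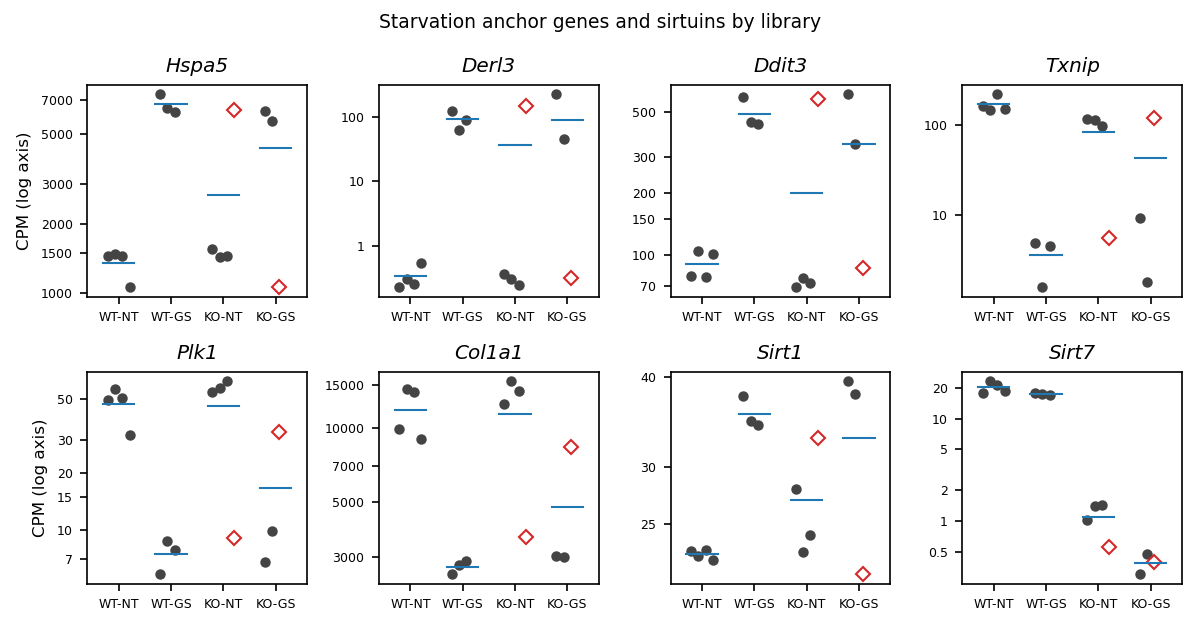
Level of 6 starvation genes, Sirt1 and Sirt7 in each library (CPM, log axes), by group. Filled circles are libraries, red diamonds mark KO-NT 4 and KO-GS 3 as labelled, and blue bars the group means of the CPM values as labelled; for Hspa5 the diamonds stand at 6333 and 1066 CPM, each with the other medium.

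For the cell division kinase Plk1, levels were 49.5, 56.1, 50.7 and 32.2 CPM in WT-NT and 5.78, 8.75 and 7.82 CPM in WT-GS. They were 54.5, 57.2, 61.9 and 9.03 CPM in KO-NT and 6.69, 9.84 and 33.3 CPM in KO-GS. The difference in response was 1.13 (SE 0.85) as labelled and -0.20 (SE 0.34) without the 2. Col1a1, a chain of type I collagen, stood at 9036 to 14400 CPM in WT-NT, at 2551 to 2875 in WT-GS, at 12551, 15484, 14170 and 3625 in KO-NT and at 3019, 3001 and 8385 in KO-GS. Its difference was 0.79 (SE 0.65) as labelled and -0.17 (SE 0.28) without the 2.

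Other genes of the study's own subject were Sirt1, H2afy and H2afy2. Sirt1, a nuclear sirtuin, stood at 23.0, 22.6, 23.1 and 22.3 CPM in WT-NT and at 37.6, 34.8 and 34.3 CPM in WT-GS. In SirT7-/- cells it stood at 28.0, 22.9, 24.2 and 33.0 CPM in KO-NT and at 39.4, 37.9 and 21.3 CPM in KO-GS. Its difference in response was -0.43 (SE 0.25, interval -0.97 to 0.12) as labelled and -0.08 (SE 0.12, interval -0.35 to 0.18) without the 2, so the second interval holds no change as large as 1.5-fold. H2afy encodes the histone variant macroH2A1, whose splice forms a gene-level count cannot separate. It stood at 79.5 to 114 CPM in WT-NT, 77.9 to 79.8 in WT-GS, 77.4 to 94.6 in KO-NT and 59.0 to 81.5 in KO-GS, with a difference of 0.00 (SE 0.19) as labelled and 0.08 (SE 0.18) without the 2. H2afy2, which encodes macroH2A2, stood at 27.5 to 55.4 CPM in WT-NT, 13.5 to 16.4 in WT-GS, 39.8 to 44.4 in KO-NT 1 to 3 and 16.6 in KO-NT 4, and 15.8, 17.8 and 23.6 in KO-GS. Its difference was 0.41 (SE 0.44, interval -0.56 to 1.37) as labelled and 0.01 (SE 0.32, interval -0.70 to 0.71) without the 2. Both intervals reach beyond 1.5-fold.

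Sirt7 had the smallest p of the fit without the 2 libraries, at a difference of -1.55 (SE 0.28, interval -2.18 to -0.93), against -1.33 (SE 0.39) as labelled. This difference is between residual SirT7-/- levels of 1.02 to 1.41 CPM in KO-NT 1 to 3 and 0.301 to 0.475 CPM in KO-GS 1 and 2. Which part of the gene those counts come from was not analysed here.

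The gene lists are taken by their median difference, which for some lay closer to 0 without the 2 libraries, for some was similar in both fits, and for others turned sign or lay farther from 0. By edgeR no member of any list was called in either fit, against 0% of all genes. DESeq2 called 1 list member, Sirt7 itself, without the 2 libraries. The medians compare with 0.01 and 0.02 over all genes tested, and the number of members above 0 compares with 51.5% of all genes as labelled and 53.7% without the 2.

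**Figure D3:**
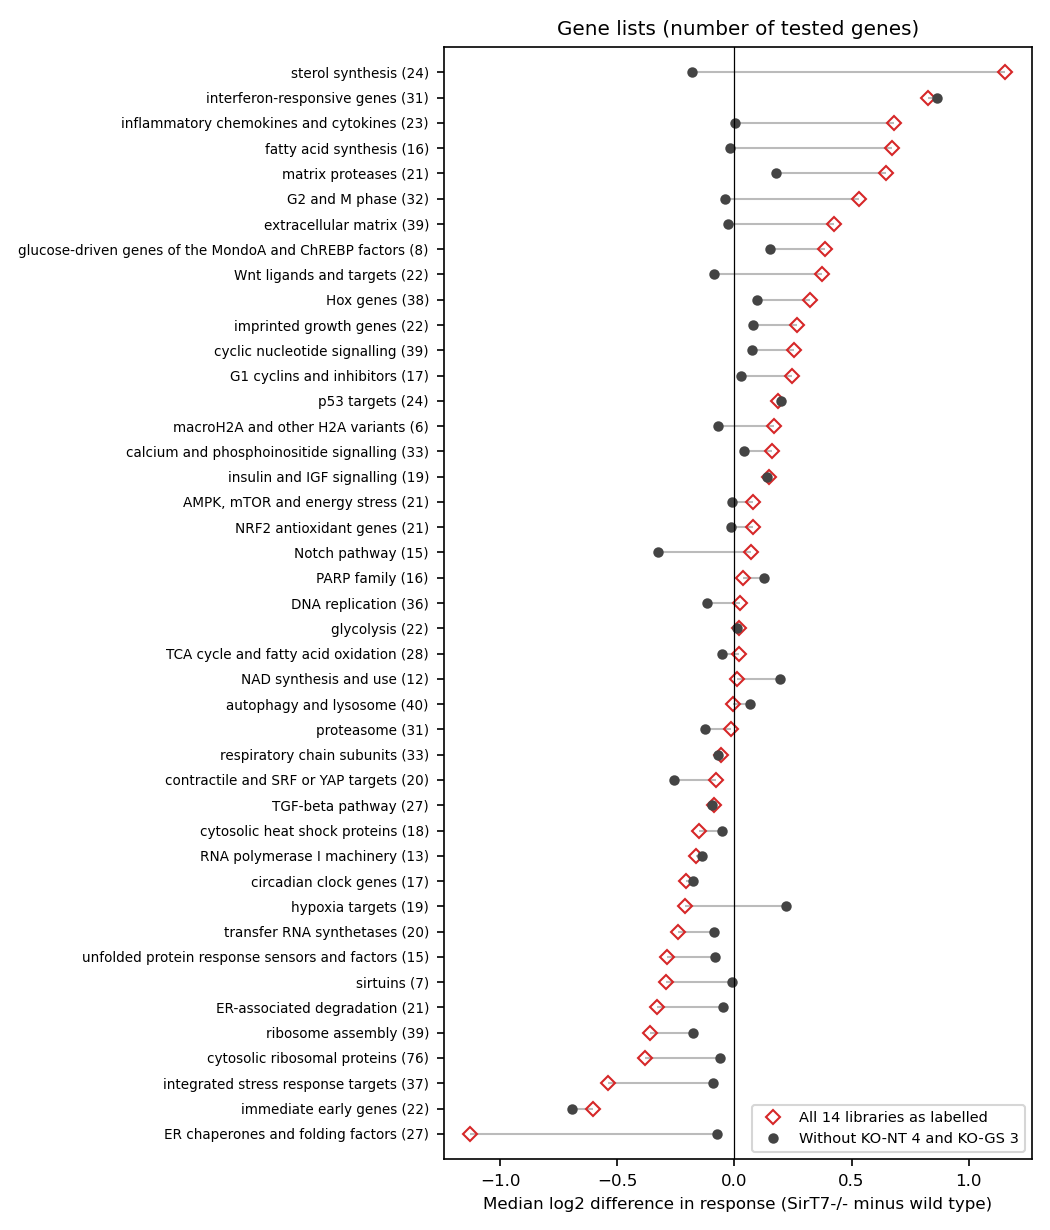
Median log2 difference in response (horizontal axis) of 43 gene lists, with the number of tested genes in brackets. Red diamonds are all 14 libraries and black circles the fit without KO-NT 4 and KO-GS 3; the ER chaperones move from -1.13 to -0.08 and sterol synthesis from 1.16 to -0.18, while the immediate early genes stand at -0.61 and -0.69.

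Lists with a median closer to 0 without the 2 libraries included arms of the starvation response itself. The 27 chaperones and folding factors of the ER had a median difference of -1.13 as labelled, with 1 member above 0, and of -0.08 without the 2, with 4 above 0. Their median wild-type response was 1.79 as labelled and 1.81 without the 2, and their median SirT7-/- response 0.59 and 1.61. The member with the smallest p in both fits was P4hb, a protein disulfide isomerase. Its level was 1557, 1737, 1448 and 1398 CPM in WT-NT, 2585, 2390 and 2302 in WT-GS, 3411, 3365, 3348 and 2592 in KO-NT and 2845, 3980 and 1468 in KO-GS. All 4 KO-NT libraries lay above every WT-NT library, and the difference in response was -0.93 (SE 0.36) as labelled and -0.70 (SE 0.21) without the 2. With 1 library left out, the list's median ran as labelled from -1.61 without KO-GS 1 to -0.49 without KO-NT 4, and in the smaller fit from -0.47 without KO-GS 1 to 0.15 without KO-GS 2. P4hb lies near Sirt7 on chromosome 11, with 5 protein-coding genes between them in the RefSeq annotation of GRCm38.p6. The oxidase Ero1l, which helps form disulfide bonds, had a difference of -0.98 (SE 0.75) as labelled and 0.30 (SE 0.21) without the 2.

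Other stress lists followed the same order of values. The 21 genes of ER-associated degradation had a median of -0.33 as labelled and -0.05 without the 2, and the 15 sensors and factors of the unfolded protein response -0.29 and -0.08. The 37 targets of the integrated stress response, which slows translation and raises amino acid supply, had medians of -0.54 and -0.09. Among them Slc7a1, a transporter of basic amino acids, had a difference of -1.03 (SE 0.43) as labelled and -0.42 (SE 0.16) without the 2. The stress transcription factor Atf3 had -1.79 (SE 0.67) and -0.94 (SE 0.46), and the secreted factor Gdf15 -1.36 (SE 0.61) and -0.56 (SE 0.42). The 20 transfer RNA synthetases had medians of -0.24 and -0.09, with 2 members above 0 in each fit.

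Lipid synthesis showed the opposite sign as labelled. The 24 tested sterol synthesis genes had a median wild-type response of -1.76 and a median SirT7-/- response of -0.56, with a median difference of 1.16 and 23 members above 0. Without the 2 libraries the median SirT7-/- response was -1.96, the median difference -0.18 and 1 member lay above 0. With KO-GS 3 alone left out, the list's median was 0.09. Stard4, a sterol carrier protein, had a difference of 0.59 (SE 0.55) as labelled and -0.37 (SE 0.19) without the 2. Tm7sf2, a sterol reductase, had 1.43 (SE 0.67) and 0.31 (SE 0.36), and Idi1, which isomerises isoprenoid units, 2.32 (SE 1.1804) and -0.16 (SE 0.32). The list for fatty acid synthesis, with 16 members, had a median of 0.67 as labelled and -0.02 without the 2. The desaturase Scd2 had 1.60 (SE 0.77) and 0.13 (SE 0.16), and the synthase Fasn 0.60 (SE 0.48) and -0.17 (SE 0.11).

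The lists of G2 and M phase genes, matrix genes, matrix proteases and ribosomal proteins also had medians closer to 0 without the 2 libraries. The 32 genes of the G2 and M phases had a median difference of 0.53 as labelled, with 31 above 0, and of -0.04 without the 2, with 9 above 0. With 1 further library left out of the smaller fit it ran from -0.36 without KO-GS 2 to 0.22 without KO-GS 1. Cenpf, a kinetochore protein, had 1.12 (SE 0.64) and 0.16 (SE 0.29), and Tpx2, a spindle assembly factor, 0.32 (SE 0.44) and -0.24 (SE 0.26). The 36 DNA replication genes did not share this, with medians of 0.02 and -0.12. The 39 extracellular matrix genes had medians of 0.43 and -0.03, with 6 of them (15.4%) at an unadjusted p under 0.05 as labelled and 2 (5.13%) without the 2, against 6.06% and 3.3% of all genes. Lum and Ogn, small proteoglycans of collagen matrix, had 3.58 (SE 1.25) and 2.31 (SE 0.82) as labelled and 1.57 (SE 0.98) and 1.16 (SE 0.58) without the 2. Fbln1, a fibulin, had 0.73 (SE 0.26) and 0.40 (SE 0.17), while Col6a3, a chain of collagen VI, had 0.35 (SE 0.58) and -0.53 (SE 0.22). The 21 matrix proteases had medians of 0.65 and 0.18, with the aggrecanase Adamts5 at 1.09 (SE 0.39) and 0.61 (SE 0.31) while the collagenase Mmp13 lay farther from 0 without the 2, at 1.97 (SE 0.75) against 1.52 (SE 0.80). The 12 fibroblast markers, several of which are matrix genes, had medians of 0.75 and -0.06. The 76 cytosolic ribosomal proteins had medians of -0.38, with 0 above 0, and -0.06, with 6 above 0.

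Immediate early genes, transcription factors that cells switch on within minutes of a signal, were a list with similar medians in the fits. Over 22 genes the median difference was -0.61 as labelled and -0.69 without the 2, with 5 and 2 members above 0. At an unadjusted p under 0.05 were 6 members as labelled and 4 without the 2, all at a lower SirT7-/- response, or 27.3% and 18.2% of the list against 2.42% and 1.25% of all genes. Most of the gap lay in normal medium, where the median of SirT7-/- over wild type was 0.42 as labelled and 0.51 without the 2, against -0.01 and -0.08 in glucose-free medium. In normal medium WT-NT 4 stood lowest, at a summed 835 CPM against 1223, 1351 and 1320 CPM in WT-NT 1 to 3. The sum was 1427, 1292, 1602 and 1329 CPM in KO-NT 1 to 4, so the 2 groups overlap. With 1 further library left out of the smaller fit, the list's median ran from -0.88 without KO-GS 2 to -0.29 without KO-GS 1.

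Klf4, a growth-arrest and pluripotency factor on this list, stood at 44.4, 68.9, 43.2 and 83.1 CPM in WT-NT 1 to 4 and at 263, 273 and 288 CPM in WT-GS 1 to 3. It stood at 109, 110, 99.2 and 278 CPM in KO-NT 1 to 4 and at 255, 216 and 83.5 CPM in KO-GS 1 to 3. KO-NT 1 to 3 lay above every WT-NT library, and KO-GS 1 and 2 below every WT-GS library. The same held as labelled for KO-NT 4 and KO-GS 3, but these stood with the other medium along starvation genes. The difference in response was -1.95 (SE 0.58) as labelled and -1.11 (SE 0.31) without the 2. Fosl1, a subunit of the AP-1 factor, stood at 5.67, 8.61, 8.05 and 3.63 CPM in WT-NT, 9.50, 13.3 and 13.4 in WT-GS, 14.002, 11.2, 15.3 and 16.5 in KO-NT and 11.7, 12.7 and 5.62 in KO-GS. As labelled, the KO-NT libraries again lay above all of WT-NT, and the difference was -1.47 (SE 0.45) and -1.10 (SE 0.43). Jun, another AP-1 subunit, had -0.70 (SE 0.29) and -0.83 (SE 0.31), and Klf2 -1.09 (SE 0.36) and -0.90 (SE 0.35).

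Ribosome assembly genes, which work in the nucleolus, had a median difference of -0.36 as labelled and -0.18 without the 2. Of 39 members, 2 lay above 0 as labelled and 0 without the 2, and 13 (33.3%) and 1 (2.56%) had an unadjusted p under 0.05, all lower, against 2.42% and 1.25% of all genes. The 1 member without the 2 is near that background. With 1 further library left out of the smaller fit, the list's median ran from -0.25 without KO-GS 2 to -0.10 without WT-NT 4. WT-NT 4 had the lowest summed level of its group, at 3426 CPM against 4287 to 4572 CPM in the rest. Rrs1, a regulator of ribosome synthesis, stood at 31.5, 37.9, 34.0 and 29.5 CPM in WT-NT, 45.9, 41.2 and 47.4 in WT-GS, 39.9, 38.3, 41.2 and 55.0 in KO-NT and 44.3, 40.1 and 31.0 in KO-GS. With the libraries as labelled, all of KO-NT lay above all of WT-NT. The difference was -0.68 (SE 0.21) as labelled and -0.41 (SE 0.16) without the 2. Rrp12, Ltv1 and Pno1, which act in maturation and export of the ribosomal subunits, had -0.45 (SE 0.16), -0.45 (SE 0.17) and -0.46 (SE 0.20) as labelled and -0.31 (SE 0.17), -0.25 (SE 0.13) and -0.18 (SE 0.09) without the 2. The 13 tested genes of the RNA polymerase I machinery, which transcribes ribosomal RNA, had medians of -0.16 and -0.14.

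Interferon-responsive genes and macrophage markers had similar medians in both fits, but in the smaller fit both medians turned negative without KO-GS 1. The 31 interferon genes had a median difference of 0.83 as labelled and 0.87 without the 2, with 28 and 30 above 0. Gbp2, a guanylate-binding protein, had 1.09 (SE 0.38) and 0.79 (SE 0.36), Psmb8, a subunit of the immunoproteasome, 2.31 (SE 0.86) and 1.57 (SE 0.88), and the factor Irf1 0.83 (SE 0.32) and 0.42 (SE 0.24). Their summed level was 550 to 817 CPM in WT-NT, 342 to 661 in WT-GS, 419 to 783 in KO-NT and 308 to 891 in KO-GS, and the groups overlap. In the smaller fit the list's median was -0.45 without KO-GS 1. The 20 macrophage markers had medians of 2.35 and 2.20, with 20 of 20 above 0 in each fit, and -0.38 without KO-GS 1 in the smaller fit. Their summed level was 1238, 374, 2529 and 751 CPM in WT-NT 1 to 4 against 414, 16.0 and 344 in WT-GS 1 to 3. It was 903, 537, 479 and 838 CPM in KO-NT 1 to 4 and 1282, 132 and 768 in KO-GS 1 to 3. Mrc1, the mannose receptor of macrophages, had a difference of 3.52 (SE 1.32) and 3.45 (SE 1.52), and F13a1, a clotting factor subunit that macrophages express, 2.86 (SE 1.13) and 2.19 (SE 0.98). In bulk RNA, fewer cells of a type and less RNA per cell cannot be told apart. The part of these cells in the interferon values was not tested.

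Skeletal muscle markers had a median difference of 2.1002 as labelled (14 tested) and 2.29 without the 2 (15 tested), with 7 and 8 of them at an unadjusted p under 0.05, all higher, against 3.64% and 2.05% of all genes. Most were scarce. Mylpf, a fast-muscle myosin light chain, stood at 1.203, 1.504, 2.15 and 0.745 CPM in WT-NT, 0.354, 0.284 and 0.340 in WT-GS, 0.677, 0.863, 0.753 and 0.218 in KO-NT and 0.526, 1.49 and 0.283 in KO-GS. KO-GS 2 alone exceeded 1 CPM among starved libraries, and without it the list's median was 0.53 in the smaller fit and 0.41 in the larger. Under the stricter filter on low counts the median was -0.16 as labelled and 0.05 without the 2. Myl1, another light chain, was at or below 0.775 CPM in all libraries. As labelled 11 members lay above 0 and 3 below, against 13 and 2 without the 2. Acta1, at 21.2 to 195 CPM, and Des, at 34.6 to 97.2 CPM, were abundant. The mean summed level of all 19 genes was 108 CPM in WT-NT and 166 in WT-GS. It was 103 CPM in KO-NT and 131 in KO-GS as labelled. This sum rose more in wild-type cells, opposite in direction to the median difference. The groups overlap, at 84.7 to 146, 98.4 to 250, 84.8 to 138 and 91.7 to 204 CPM. The members that passed the filter did so partly through the groups where they were high, so their count supports nothing beyond these values.

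The lists of glycolysis, mitochondrial metabolism, autophagy and energy stress had medians near that of all genes. Without the 2 libraries, though, nearly all respiratory chain subunits lay below 0. Other metabolic lists are given beside them. Glycolysis had medians of 0.02 and 0.01 over 22 genes, with Aldoc, a brain-type aldolase, at 1.51 (SE 0.50) and 0.69 (SE 0.27) and Pfkfb4, a regulator of glycolytic flux, at -0.30 (SE 0.40) and -0.72 (SE 0.30). The 33 respiratory chain subunits had medians of -0.06, with 12 above 0, and -0.07, with 1 above 0. The 28 genes of the TCA cycle and fatty acid oxidation had 0.02 and -0.06, with 15 and 11 above 0. The 40 autophagy and lysosome genes had -0.0047 and 0.06, with 20 and 24 above 0. The 31 proteasome genes had -0.01, with 11 above 0, and -0.13, with 1 above 0. The 24 p53 targets had medians of 0.19 and 0.20, which were 0.03 and 0.06 with WT-NT 4 left out. Their summed level was 3476.5 CPM in WT-NT 4 against 2222 to 2455 CPM in WT-NT 1 to 3. The 21 genes of AMPK, mTOR and energy stress had 0.08 and -0.01. Of the NAD-linked lists, the 7 sirtuins had medians of -0.29 and -0.01, the 16 PARP genes 0.04 and 0.13, the 12 tested genes of NAD synthesis and use 0.01 and 0.19 and the 6 H2A variants 0.17 and -0.07. Parp8, an ADP-ribosyl transferase, had the smallest p of its family as labelled, at 0.42 (SE 0.21), and stood at 0.13 (SE 0.12) without the 2.

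Hypoxia targets changed the sign of their median between the fits, from -0.21 with 5 of 19 above 0 to 0.22 with 15 of 19 above 0. Bnip3, a mitochondrial autophagy receptor, stood at 39.8, 35.9, 47.9 and 44.1 CPM in WT-NT, 94.5, 133 and 70.7 in WT-GS, 21.9, 20.7, 20.4 and 80.5 in KO-NT and 99.6, 72.8 and 42.3 in KO-GS. KO-NT 1 to 3 lay below every WT-NT library, and KO-GS 1 and 2 within the range of WT-GS. The difference was -0.31 (SE 0.64) as labelled and 0.72 (SE 0.28) without the 2. Pdk1, a kinase of pyruvate dehydrogenase, stood at 31.0, 24.7, 36.0 and 31.5 CPM in WT-NT, 46.7, 57.7 and 42.0 in WT-GS, 17.1, 17.3, 14.8 and 42.4 in KO-NT and 47.3, 38.9 and 28.7 in KO-GS. KO-NT 1 to 3 again lay below every WT-NT library, and the difference was 0.02 (SE 0.44) as labelled and 0.66 (SE 0.21) without the 2. KO-GS 3, which stood with normal medium along starvation genes, lay within the range of WT-NT for both Bnip3 and Pdk1.

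Among signalling lists, the 39 tested genes of cyclic nucleotide signalling had medians of 0.25, with 32 above 0, and 0.08, with 25 above 0. Pde7a, a cAMP phosphodiesterase, had 0.41 (SE 0.18) and 0.21 (SE 0.12). The 33 genes of calcium and phosphoinositide signalling had medians of 0.16 and 0.04. Plcb4, a phospholipase, had -0.76 (SE 0.30) and -0.44 (SE 0.20), and the kinase subunit Camk2b, at or below a group mean of 0.312 CPM, 2.53 (SE 0.90) and 2.62 (SE 0.93). In insulin and IGF signalling, with medians of 0.15 and 0.14 over 19 genes, the receptor substrate Irs1 had 1.64 (SE 0.55) and 0.78 (SE 0.30) and the binding protein Igfbp7 -0.39 (SE 0.14) and -0.31 (SE 0.13). The TGF-beta pathway had medians of -0.09 and -0.09 over 27 genes, with the ligand Tgfb1 at -0.35 (SE 0.28) and -0.61 (SE 0.26). The Notch pathway had medians of 0.07 and -0.33 over 15 genes, with the ligand Jag1 at -0.17 (SE 0.37) and -0.70 (SE 0.23).

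Of the 8 genes per direction with the smallest p in each fit, 3 higher and 1 lower appeared in both fits. Their values are descriptions, since the p-values chose them and none passed the test by edgeR. Tbkbp1, an adaptor of the kinase TBK1, stood at 12.3, 11.4, 15.9 and 17.3 CPM in WT-NT and at 7.99, 7.06 and 8.06 in WT-GS. It stood at 9.64, 10.03, 8.51 and 11.3 CPM in KO-NT and at 11.6, 9.76 and 13.02 in KO-GS. Every WT-NT library lay above every KO-NT library and every WT-GS library below every KO-GS library, with the libraries as labelled. The difference was 1.03 (SE 0.23, interval 0.54 to 1.52) as labelled and 1.0 (SE 0.22, interval 0.52 to 1.48) without the 2. Pde1a, a calcium-dependent phosphodiesterase of cyclic nucleotides, stood at 7.43, 6.19, 8.74 and 8.62 CPM in WT-NT, 5.35, 4.87 and 3.24 in WT-GS, 2.89, 2.46, 3.61 and 4.62 in KO-NT and 4.88, 4.32 and 5.88 in KO-GS. As labelled, every KO-NT library lay below every WT-NT library. The difference was 1.29 (SE 0.33) as labelled and 1.34 (SE 0.31) without the 2, where SirT7-/- stood at -1.34 against wild type in normal medium and at 0.00 in glucose-free medium.

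Cxcl12, a chemokine of stromal cells, and Kcnf1, a modifying subunit of potassium channels, were the other two. Cxcl12 stood at 502, 521, 369 and 385 CPM in WT-NT and at 136, 105 and 112 CPM in WT-GS. In SirT7-/- cells it stood at 235, 254, 223 and 118 CPM in KO-NT and at 131, 120 and 317 CPM in KO-GS. Its wild-type response was -1.86 and its SirT7-/- response -0.92 without the 2, a difference of 0.94 (SE 0.22), against 1.72 (SE 0.48) as labelled. SirT7-/- stood at -0.88 against wild type in normal medium and at 0.06 in glucose-free medium in that fit. Kcnf1 stood at 4.33, 3.42, 2.69 and 2.65 CPM in WT-NT, 4.48, 7.43 and 8.10 in WT-GS, 6.15, 7.53, 8.70 and 4.78 in KO-NT and 3.17, 5.59 and 2.26 in KO-GS. The 2 media stand in opposite order in the genotypes, with overlap between KO-NT and KO-GS, and the difference was -1.98 (SE 0.48) and -1.85 (SE 0.45).

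**Figure D4:**
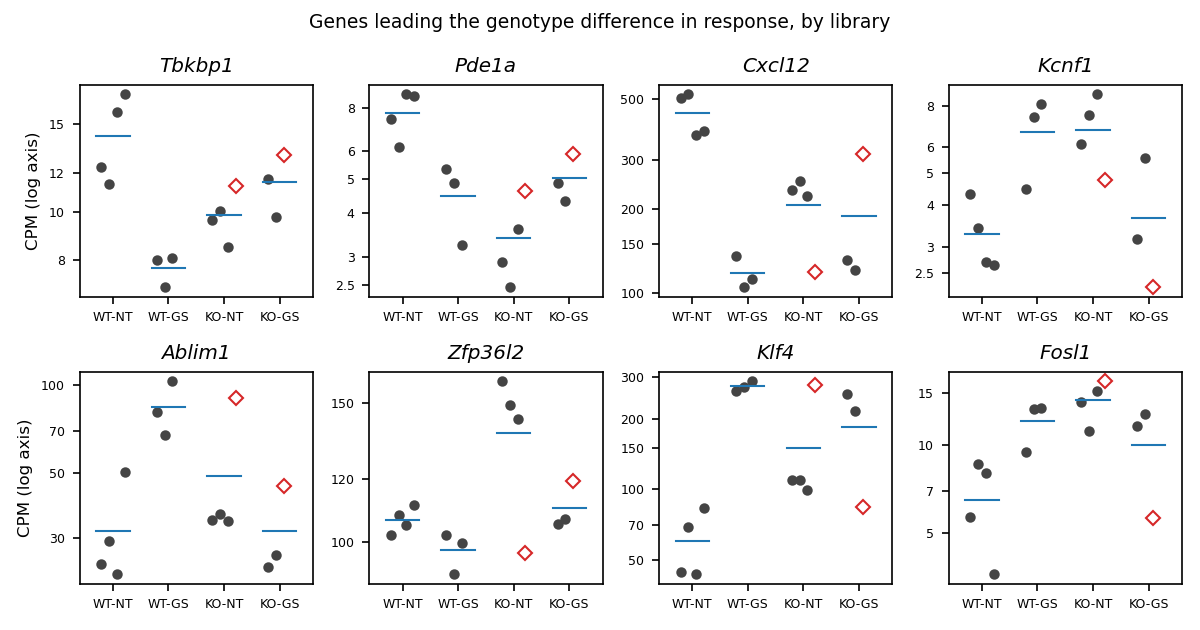
Level in each library (CPM, log axes) of 8 genes with small p for the genotype difference in response, by group. Filled circles are libraries, red diamonds mark KO-NT 4 and KO-GS 3 as labelled, and blue bars the group means as labelled; for Zfp36l2 the KO-NT circles stand at 143 to 160 CPM and all other libraries at 90.9 to 119 CPM, while for Ablim1 the KO-GS circles stand at 23.8 and 26.3 CPM against 67.6 to 103 CPM in WT-GS.

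Without the 2 libraries, the remaining genes with the smallest p differed in the medium that held the gap. Ablim1, an actin-binding protein, stood at 24.4, 29.3, 22.5 and 50.3 CPM in WT-NT, 81.4, 67.6 and 103 in WT-GS, 34.5, 36.4, 34.1 and 90.7 in KO-NT and 23.8, 26.3 and 45.2 in KO-GS. KO-GS 1 and 2 lay below all WT-GS libraries, as did KO-GS 3, which stood with normal medium along starvation genes. KO-NT 4, which stood with the starved libraries there, was at 90.7 CPM, within the range of WT-GS. The wild-type response was 1.48 (SE 0.24) and the SirT7-/- response -0.49 (SE 0.29), a difference of -1.97 (SE 0.38), against -2.101 (SE 0.55) as labelled. SirT7-/- stood at 0.18 against wild type in normal medium and at -1.79 in glucose-free medium. Zfp36l2, an RNA-binding protein that promotes decay of AU-rich messages, stood at 102, 108, 105 and 111 CPM in WT-NT, 102, 90.9 and 99.6 in WT-GS, 160, 149, 143 and 96.7 in KO-NT and 105, 107 and 119 in KO-GS. Here KO-NT 1 to 3 stood apart from all other libraries, and the difference was -0.44 (SE 0.10) without the 2 and -0.25 (SE 0.20) as labelled. KO-GS 3, which stood with normal medium along starvation genes, was at 119 CPM, below KO-NT 1 to 3 and above every WT-NT library. Ptger4, a prostaglandin E receptor, and Bdh1, a ketone body enzyme, had the same shape, with KO-GS 3 below KO-NT 1 to 3 at 14.8 and 11.5 CPM. Ptger4 stood at 19.04 to 21.9 CPM in KO-NT 1 to 3 and at 8.39 to 14.8 CPM in the other 11 libraries, with differences of -0.91 (SE 0.21) without the 2 and -0.46 (SE 0.35) as labelled. Bdh1 stood at 14.4 to 15.7 CPM in KO-NT 1 to 3 and at 8.36 to 11.5 elsewhere, with -0.68 (SE 0.14) and -0.38 (SE 0.28).

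The other genes of that fit are given by value. Limk1, a kinase that acts on cofilin, had -0.40 (SE 0.10) without the 2 and -0.24 (SE 0.16) as labelled. Cldn12, a claudin, had -2.78 (SE 0.68) and -2.09 (SE 0.69), but WT-NT 3 stood at 47.4 CPM against 10.5 to 17.0 in the rest of its group. At the higher end, Tgfbi, a matrix protein that TGF-beta induces, had 1.09 (SE 0.28) and 2.14 (SE 0.70). It stood at 140 to 222 CPM in WT-NT, 15.1 to 24.1 in WT-GS, 110 to 138 in KO-NT 1 to 3 and 32.4 and 32.6 in KO-GS 1 and 2. Igsf10 had 0.65 (SE 0.18) and 1.73 (SE 0.62), Lrrn3 1.10 (SE 0.31) and 1.08 (SE 0.33) and the phosphatase Ptpn13 0.42 (SE 0.12) and 0.40 (SE 0.11). Pcyt2, of phosphatidylethanolamine synthesis, had 0.88 (SE 0.24) and 1.70 (SE 0.50) and is the neighbour of Sirt7 in the same RefSeq annotation, with 0 protein-coding genes between them. Its level was 58.4 to 90.6 CPM in WT-NT, 15.7 to 16.2 in WT-GS, 14.3, 15.8, 14.7 and 7.20 in KO-NT and 7.26, 6.20 and 17.9 in KO-GS.

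As labelled, the remaining genes with the smallest p at a higher SirT7-/- response were the small GTPase effector Rassf2 at 1.86 (SE 0.49), the angiotensin receptor Agtr2 at 3.99 (SE 1.07), the cilium gene Bbs2 at 0.75 (SE 0.20), the fatty acid carrier Fabp7 at 2.54 (SE 0.70) and the cadherin Cdh10 at 1.59 (SE 0.44). In the smaller fit they had 1.59, 2.94, 0.64, 1.95 and 1.17. Agtr2 stood at 24.0 CPM in WT-NT 4 and at 3.13 to 6.09 CPM in the rest of that group. At a lower response were the small GTPases Rem1 at -1.52 (SE 0.36), Rhob at -0.89 (SE 0.22) and Arf2 at -0.99 (SE 0.25). With them were the nuclear envelope gene Syne3 at -0.89 (SE 0.21), the receptor F2rl1 at -1.20 (SE 0.30), the factor Klf13 at -0.63 (SE 0.16) and Pxdc1 at -0.67 (SE 0.18). Without the 2 these 7 kept their sign, at -1.10, -0.83, -0.69, -0.81, -0.90, -0.43 and -0.63 in the same order. Rem1 stood at 3.50 to 4.75 CPM in WT-NT, 8.41 to 12.6 in WT-GS, 4.17 to 8.34 in KO-NT and 3.81 to 6.46 in KO-GS. As labelled, all KO-GS libraries lay below all WT-GS libraries, among them KO-GS 3, which stood with normal medium along starvation genes.

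**Figure D5:**
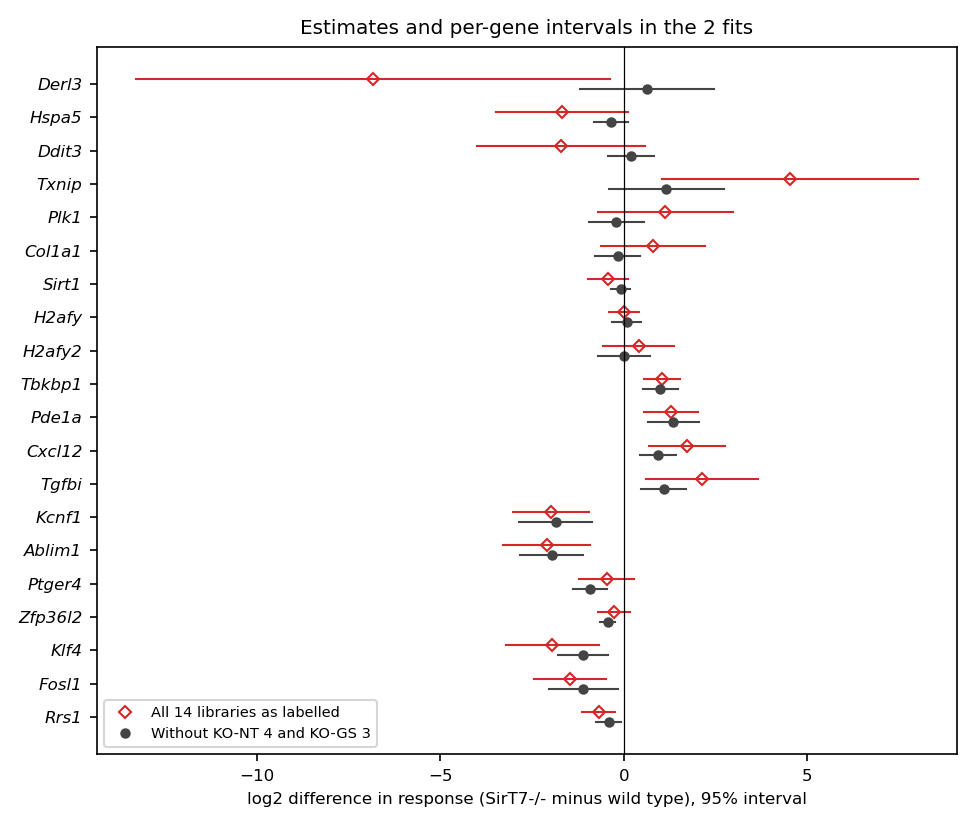
Log2 difference in response (horizontal axis) with its 95% interval for 20 named genes. Red diamonds are all 14 libraries and black circles the fit without KO-NT 4 and KO-GS 3; for Hspa5 the interval narrows from -3.48 to 0.13 to -0.82 to 0.10, and for Tbkbp1 it is 0.54 to 1.52 and 0.52 to 1.48. By edgeR no gene passed adjustment over all genes.

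The calls of DESeq2 were chosen after their values were seen. With all libraries they were H2-Q1, Fdx1l, Tbkbp1 and Pira4 at a higher and Slc13a5 at a lower SirT7-/- response. H2-Q1 and Pira4 belong to families of near-identical genes, so their counts are uncertain. Fdx1l, a ferredoxin-like gene, was listed at 0 in WT-NT 1, WT-NT 4, WT-GS 1 to 3 and KO-GS 3 and stood at 18.6 to 28.4 CPM in the other 8 libraries. The 15 without the 2 libraries were 4 higher and 11 lower, among them Sirt7, with a DESeq2 adjusted p of 0.000964, and Ablim1, with 0.00149. Bdh1, Zfp36l2, Ptger4, Cldn12, Limk1 and Slc13a5 were among them too. The smallest DESeq2 adjusted p, 1.84e-08, was that of C1rb, at 0 in all WT-NT and KO-GS libraries and at most 2.51 CPM elsewhere. Fdx1l, H2-Q1, Ucp1, Gm14436, Gm9767 and Myom2 were each at 0 in several libraries. By edgeR all of these had an adjusted p of at least 0.680.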

How the data were processed

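Total RNA of 14 libraries was sequenced from a TruSeq RNA kit, per the labels. The submitters' processing notes name FastQC 0.11.3, Trimmomatic 0.36, HISAT2 2.1.0, SAMtools, StringTie 1.3.3 and DESeq2 1.18.1 with genome build mm9; annotation, read pairing and strand setting are not given in the sources used here. The deposited table holds, for 24015 gene symbols, the authors' estimated counts in whole numbers, of which 4225 are at 0 in all libraries and 27 show a date in place of a symbol. These estimated counts were used as they stand, with no gene left out but by the filter.

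The test was edgeR's (version 4.0.16, R 4.3.3; filterByExpr with a minimum count of 10 and a minimum total of 15, TMM, robust quasi-likelihood F-test, 1 mean per group), applied to the difference in response over all genes, with Benjamini-Hochberg adjustment and a call at an adjusted p under 0.05. The SE was worked back from the F statistic and draws on the spread of all libraries in the fit. CPM is the count scaled to the library total. A count of 0 allows 3 counts, for counting error only.

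Named genes are Sirt7, 10 anchor genes, the 8 per direction and fit with the smallest p at a mean of at least 5 CPM in a group, and list members among the 3 with the smallest p, some of which are not reported here. The rule also bars predicted and clone symbols. Of 1189 entries in 51 lists, 1185 matched the table. The members, lists, rule and the 2 libraries left out were chosen with earlier results of these data known. Alternatives were DESeq2 1.42.0, limma-voom (limma 3.58.1), RLE factors, no filter, library size alone, a stricter filter (a mean count of 50 and 1 CPM in every library of a group), the replicate number as a block, and each library left out. The order of genes near Sirt7 came from RefSeq on GRCm38.p6, another build than mm9, so no coordinates are given.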

Additional observations from a re-analysis of the deposited data

Results flagged for a closer look

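In groups of 4 libraries, 28 of 172 gene and group pairs (16.3%) held 1 library far from the others. About 1 in 20 would do so by chance if pairs were independent. These were named genes, chosen from these data, and many move together. KO-NT 4 had also been set apart along starvation genes beforehand, so the count is a description and not a test. Of the 28, 24 were in the library labelled KO-NT 4 and 4 elsewhere. The groups of 3 were not examined in this way, so KO-GS 3 could not appear.

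KO-NT 4 stood above KO-NT 1 to 3 for genes of protein folding and stress. There Hspa5 was at 6333 CPM, Derl3 at 145, Ddit3 at 581, Ero1l at 404 and Slc7a1 at 365 CPM. It also stood above them for Klf4 at 278 CPM against 99.2 to 110, Ablim1 at 90.7 against 34.1 to 36.4, Klf13 at 206 and Igfbp7 at 551. The hypoxia targets Bnip3 and Pdk1 were at 80.5 and 42.4 CPM, the ribosome genes Pno1 and Polr1d at 74.7 and 88.7, Mmp13 at 15.1 and Lrrn3 at 6.78. KO-NT 4 stood below the other 3 for the sterol carrier Stard4 at 36.2 CPM, and for the division genes Plk1 at 9.03, Cenpf at 20.8 and Tpx2 at 66.2. The same held for H2afy2 at 16.6, Dak at 10.9, Igsf10 at 62.6, Pde7a at 19.5 and P4hb at 2592 CPM. For P4hb, KO-NT 4 still stood above all WT-NT libraries.

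Among wild-type libraries in normal medium, WT-NT 4 stood at 1065 CPM for Hspa5 against 1449 to 1479 in the other 3, and at 24.0 CPM for Agtr2 against 3.13 to 6.09. WT-NT 3 stood at 49.1 CPM for F13a1 against 9.22 to 13.3, and WT-NT 2 at 90.6 CPM for Pcyt2 against 58.4 to 62.8.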

How the results depend on the processing

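Depth limits the scarce genes, such as Myl1, since a count of 0 allows up to 0.0502 CPM in the shallowest library. EdgeR's count of 0 called genes stayed 0 with limma-voom, RLE factors, library size alone, no filter, the stricter filter and the replicate block in both fits. DESeq2 called 5 with all libraries and 15 without the 2. With each library left out in turn, edgeR's count ran from 0 to 1 as labelled, with Npcd called without WT-GS 3 and H2-Q1 without KO-GS 1. In the smaller fit it ran from 0 to 2, with Cldn12 called without WT-NT 3, Ablim1 without WT-NT 4 (which is also the fit that leaves out 3 libraries, with 1 call), Npcd without WT-GS 3, H2-Q1 without KO-GS 1, and Pgam5 and Fam134c without KO-GS 2. Where KO-GS 1 or KO-GS 2 was left out of that fit, 1 KO-GS library remained and was assumed to vary like the other groups. The replicate numbers were not taken to pair the libraries in the main test. Over 19 same-numbered pairs the correlation of deviations ran from -0.12 to 0.46, with 9 of 19 above 0.1. Of 14 libraries, 5 lay closest to their own number. The deviations were taken from group means as labelled, so KO-NT 4 and KO-GS 3, at -0.54 with each other, shift those of both SirT7-/- groups. These correlations therefore cannot decide whether the numbers pair the libraries. With the replicate block, 1163 genes as labelled and 667 without the 2 had an unadjusted p under 0.05, and the smallest adjusted p by edgeR was 0.592 and 0.465. Signs that turned were all of uncalled estimates, and the cause was not tested. As labelled, H2afy had -0.019 with limma-voom, -0.00055 with no filter and -0.013 with the replicate block. With 1 library left out as labelled, H2afy ran from -0.094 to 0.12, Pdk1 from -0.16 to 0.48, Bnip3 from -0.62 to 0.45, Derl3 from -8.78 to 0.028, Col6a3 from -0.26 to 0.63, Stard4 from -0.14 to 0.87 and Tpx2 from -0.020 to 0.57. Without the 2, H2afy2 had -0.0096 with DESeq2, -0.070 with limma-voom, -0.0097 with RLE factors and -0.015 with no filter. With 1 further library left out, H2afy2 ran from -0.23 to 0.15, H2afy from -0.0082 to 0.19, Cenpf from -0.30 to 0.49, Ddit3 from -0.24 to 0.50, Derl3 from -0.92 to 1.33, Idi1 from -0.58 to 0.15, Plk1 from -0.56 to 0.059, Psmb8 from -0.16 to 2.30, Scd2 from -0.030 to 0.24, Tpx2 from -0.66 to 0.053 and Txnip from -0.46 to 1.86. Scaling by library size alone put the median of all genes at 0.08 in both fits.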
